A study of Homo sapiens with 18 samples.

Results

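The merged ATAC-seq intervals of 3 K562 lines held 1066 regions, of 85549 in all, that carried a called peak in every V-K562 and every G-K562 library and in no B-K562 library. K562 is a human leukaemia line with erythroid and megakaryocytic features that makes WT1 but almost no BASP1. V-K562 was the control line, B-K562 stably expressed wild type BASP1, and G-K562 stably expressed BASP1-G2A, in which the glycine that receives the N-terminal myristoyl group is replaced. All 3 were stably transfected lines kept as selected pools rather than single clones, so 1 line stood for each construct, and 3 culture replicates of each were measured by RNA-seq and by ATAC-seq. Intervals sharing at least 1 base were merged into 1 region, and the members were chosen by whether each library had a called peak in the region. The 1066 regions were 1.246% of all regions and 3.464% of the 30775 regions with a peak in all 6 V-K562 and G-K562 libraries.

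BASP1 is a small membrane-associated and nuclear protein that acts as a transcriptional corepressor of WT1, and its myristoyl group is needed for its binding of lipids in the nucleus. ATAC-seq reads out where a transposase can enter chromatin, which marks promoters, enhancers and insulators. In blood cells many distal accessible sites are bound by GATA factors, RUNX and ETS factors, STAT factors, or by AP-1, the dimers of FOS, JUN, ATF and BATF proteins that recognise a short palindrome and respond to growth and stress signals.

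Because an AP-1 match was more frequent in these regions than in the other region classes given below, sequence from 6 of them that hold 1 is shown, as 200 bases centred on the summit, from the plus strand of GRCh38. Capitals mark the AP-1 match, TGANTCA. The first lies outside genes at chr16:87806813-87807012 and had the highest pileup of the named regions with a match; the others lie upstream of RUNX3 (chr1:24970461-24970660) and in introns of CAPN5 (chr11:77073309-77073508), BACH2 (chr6:90103517-90103716), PRKCH (chr14:61527805-61528004) and PDE11A (chr2:178101373-178101572).
chromosome 16 region: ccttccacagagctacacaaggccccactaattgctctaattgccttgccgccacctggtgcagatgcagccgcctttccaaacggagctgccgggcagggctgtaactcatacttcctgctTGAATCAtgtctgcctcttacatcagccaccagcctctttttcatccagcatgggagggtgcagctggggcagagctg
RUNX3 region: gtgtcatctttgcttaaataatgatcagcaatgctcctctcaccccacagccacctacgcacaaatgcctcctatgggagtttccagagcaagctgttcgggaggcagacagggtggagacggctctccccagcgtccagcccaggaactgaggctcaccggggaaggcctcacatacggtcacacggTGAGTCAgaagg
CAPN5 region: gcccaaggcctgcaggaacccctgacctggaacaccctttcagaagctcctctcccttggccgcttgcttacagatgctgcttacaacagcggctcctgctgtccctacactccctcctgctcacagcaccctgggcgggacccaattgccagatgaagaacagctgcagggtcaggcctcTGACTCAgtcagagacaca
BACH2 region: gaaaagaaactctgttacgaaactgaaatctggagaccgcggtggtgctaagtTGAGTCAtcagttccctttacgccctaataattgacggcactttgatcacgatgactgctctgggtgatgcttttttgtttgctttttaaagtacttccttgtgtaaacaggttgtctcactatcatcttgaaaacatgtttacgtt
PRKCH region: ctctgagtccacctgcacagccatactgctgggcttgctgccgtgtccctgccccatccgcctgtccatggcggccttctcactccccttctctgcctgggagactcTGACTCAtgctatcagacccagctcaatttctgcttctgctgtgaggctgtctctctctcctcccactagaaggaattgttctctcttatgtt
PDE11A region: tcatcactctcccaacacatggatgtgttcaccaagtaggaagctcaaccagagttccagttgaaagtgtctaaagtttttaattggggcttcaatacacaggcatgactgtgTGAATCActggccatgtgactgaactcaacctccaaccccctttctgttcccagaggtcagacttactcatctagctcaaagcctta

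Shorter stretches of 29 bases show the AP-1 match at the starts of SYTL1 (chr1:27342033-27342061) and GRIN3B (chr19:1000158-1000186), whose RNA is given below.
SYTL1 start: gggctgcctgtTGAGTCAgccttcttccc
GRIN3B start: catctgtggccTGAATCAgagcagggatg

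The libraries fit their labels at the targeted gene: BASP1 had 7, 5 and 7 normalised counts in V-K562, 6849, 6618 and 6189 in B-K562, and 9323, 12538 and 8124 in G-K562. RNA-seq libraries held 32074895 to 33229588 normalised counts. After the authors equalised tag numbers, each B-K562 library had 47111 to 48905 called peaks, each G-K562 library 48408 to 51199 and each V-K562 library 53862 to 55570. B-K562 and G-K562 RNA stood in separately normalised tables, and the V-K562 values printed here are those of the table shared with B-K562, while in the other they are 1.0153 to 1.0203 times as high. The 12 K562 markers examined were above 0 in every library, with summed levels of 132776 to 149229 for V-K562 libraries, from 225931 up to 229915 for B-K562 libraries and from 74278 up to 80693 for those of G-K562. Of 8 markers of other blood cells, MS4A1 was at 0 in all libraries, while LYZ, at 1265 to 1402 in V-K562 and B-K562 and 3772 to 4301 in G-K562, and CD3D, at 400 to 561 in V-K562, were not near 0; what part these shifts have in the results below was not tested. In bulk RNA, fewer cells that express a gene and less RNA in each cell cannot be told apart.

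Their median summit pileup, the number of overlapping tags at the highest point, was 31, 31 and 32 across V-K562 replicates and 35, 31 and 35 across those of G-K562. The mean over those 6 libraries had a median of 33, against 77.33 for the 26984 regions with a peak in all 9 libraries. In V-K562 the median over all regions with a peak was 34, against 31 for these regions. Median length was 389 bp, against 371 bp for all regions and 549 bp for the peaks present everywhere.

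**Figure D1:**
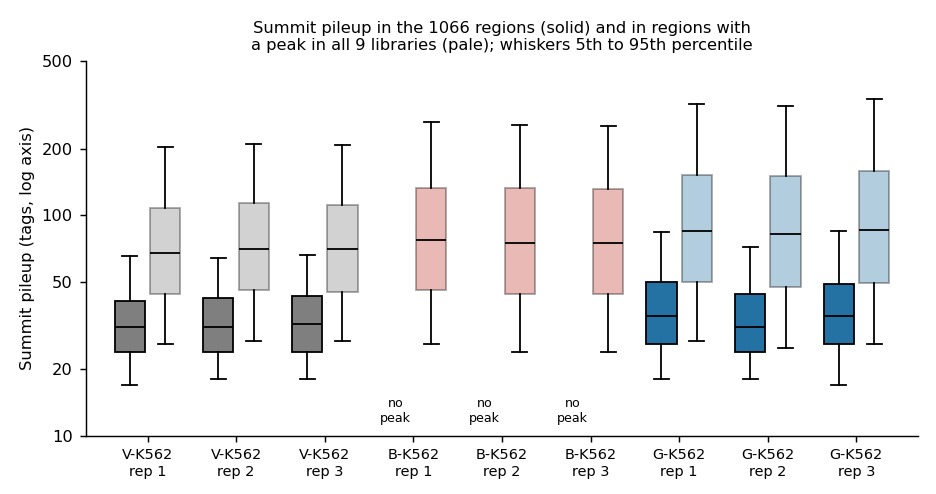
Summit pileup in tags (log axis) by library, for the 1066 regions (solid boxes) and for the 26984 regions with a peak in all 9 libraries (pale boxes); boxes give quartiles and median, whiskers the 5th and 95th percentiles. The solid boxes have medians of 31 to 35 and there is none for B-K562, where no peak was called in these regions.

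Since called peaks chose the members, the absence in B-K562 is not a result, and a library without a called peak was not shown to have no tags there. The lowest summit called in a B-K562 library was 11 tags and the median 46. In 851 of the 1066 regions all 6 V-K562 and G-K562 values lay above 17, the 5th percentile of B-K562 summits, in 345 above 27, the lower quartile, and in 61 above the median. Just outside the rule were 1011 regions with a peak in all V-K562 and G-K562 libraries and in 1 B-K562 library, which was replicate 1 for 408, replicate 2 for 281 and replicate 3 for 322 of them. Their mean pileup over V-K562 and G-K562 had a median of 34.5, and the single B-K562 peak a median of 23. Another 1714 regions had a peak in 2 B-K562 libraries. The closest B-K562 peak was a median of 9093 bp away from a member, within 500 bp for 29 and within 10 kb for 563.

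Of the 12 members with the highest pileup, 9 lay inside a measured gene. The highest was at the start of PTPN6, a tyrosine phosphatase of blood cells, at chr12:6946223-6946745, with 96, 93 and 107 tags in V-K562 and 209, 196 and 224 in G-K562. Tag numbers of single regions are given unscaled. With the scaling used in the test of pileup below, the log2 difference of this region in G-K562 against V-K562 was 0.76 (SE 0.13), under 2-fold. The closest B-K562 peak was 1322 bp away. An intron of the lipid transporter gene ABCA7 held the next, at chr19:1042207-1042507, with 112, 118 and 112 tags in V-K562 and 118, 123 and 139 in G-K562, where the lines overlapped. The third lay inside RAB26, a vesicle GTPase gene, toward its 3′ end, at chr16:2153562-2153954, with 93, 82 and 108 tags in V-K562 and 163, 112 and 134 in G-K562. Several of these tall members stood close to a B-K562 peak, at 293 bp for SARS1, 581 bp for CFL1, 776 bp for ABCA7, 858 bp for HNRNPF and 990 bp for LONP1. Of the genes closest to these 12 regions, 10 were tested and 2 were lower in B-K562 than in V-K562 by the test described below, where 14.1% of all genes tested were lower. SARS1, the cytosolic seryl-tRNA synthetase, had 18967, 19030 and 20598 normalised counts in V-K562 against 8016, 7932 and 8056 in B-K562. RAB26 had 376, 315 and 372 against 98, 116 and 92. PTPN6 itself had 161, 155 and 154 in V-K562, 118, 107 and 103 in B-K562 and 337, 335 and 405 in G-K562. Its log2 difference of -0.52 in B-K562 did not reach the 2-fold criterion, and it rose by 1.16 in G-K562.

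Most members lay away from gene starts. Only 79 (7.411%) had a summit within 1 kb of the start of an annotated protein-coding transcript, against 19.09% of all regions, 36.26% of the regions with a peak in all 6 V-K562 and G-K562 libraries, and 5.152% of the 2659 regions whose peak was absent from G-K562 only. Introns of protein-coding genes held 415 members (38.93%), sequence outside genes 358 (33.58%), other genes 186 (17.45%), UTRs 16 (1.501%) and coding exons 12 (1.126%). The median distance to a protein-coding start was 24180.5 bp, against 16572 bp for all regions. GC content of the 300 bases around the summit had a median of 48.67%, against 51.33% for all regions and 58.33% for peaks in all 9 libraries.

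The members were spread over the genome. They took 1.778% of the regions with a peak in all V-K562 and G-K562 libraries on the X chromosome, 1.782% on chromosome 19 and 5.279% on chromosome 4, and none of the 2 such regions on the Y chromosome. They fell in 782 windows of 1 Mb, of which 56 held 3 or more. The most crowded was chr1 from 27 to 28 Mb, with 5 members among 49 regions with a peak in all V-K562 and G-K562 libraries. In chr6 from 122 to 123 Mb, around SMPDL3A and PKIB, 4 of 7 such regions were members. When the regions with a peak in all V-K562 and G-K562 libraries were taken in order along each chromosome, 946 members had no other member beside them, 56 runs held 2 or more, and the longest held 4. The other regions in that order included those with a peak in only 1 or 2 B-K562 libraries.

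An AP-1 match was present in 399 members (37.4%), against 20.1% of all regions, 19.2% of regions with a peak in all V-K562 and G-K562 libraries and 16.4% of the peaks absent from G-K562 only. The share was 32.5% in the regions with a peak in V-K562 alone and 34% in those with a peak in 1 B-K562 library. At 200 bases, an alternative chosen after seeing the data, the shares were 33.5% of members and 17.1% of all regions. Away from starts, 38.6% of 987 members had a match, against 26.6% of 19616 regions with a peak in all V-K562 and G-K562 libraries. Away from starts and below a mean pileup of 50, 39.6% of 845 members had a match, against 21.3% of 5820 regions with a peak in all 9 libraries. The match lay near the summit, with a median distance of 32 bp for the closest one, and 66.67% of the 399 regions had one within 50 bp. STAT matches, TTCNNNGAA, were found in 15.3% of members and 8.7% of all regions, and 52 members held both an AP-1 and a STAT match. The STAT share was 13.1% in peaks of V-K562 alone and 11.8% in regions with a peak in 1 B-K562 library. GATA matches, AGATAA, were found in 17.2% of members, 23.4% of all regions and 61.0% of the peaks absent from G-K562 only. The GATA share was 16.5% in regions with a peak in all V-K562 and G-K562 libraries. It was 18.1% in those with a peak in 1 B-K562 library and 38.7% in peaks of V-K562 alone. RUNX (TGTGGTT) stood at 9.38% against 7.91%, TEAD (GGAATG) at 16.7% against 15.4%, E box (CAGCTG) at 22.0% against 20.8%, CTCF (CCANNAGGG) at 7.60% against 9.74%, and WT1 and EGR (GCGTGGGNG) at 1.69% against 1.84% of all regions. Matches typical of promoters were rare: the GC box (GGGGCGGGG) in 1.88% against 6.65%, ETS (CCGGAAGT) in 0.563% against 1.61%, YY1 (AANATGGCG) in 0.469% against 1.55%, and NRF1 (GCGCNTGCG) in 0.281% against 2.74%. Both strands were searched, a match is letters and not shown binding, and the motifs do not contain each other.

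**Figure D2:**
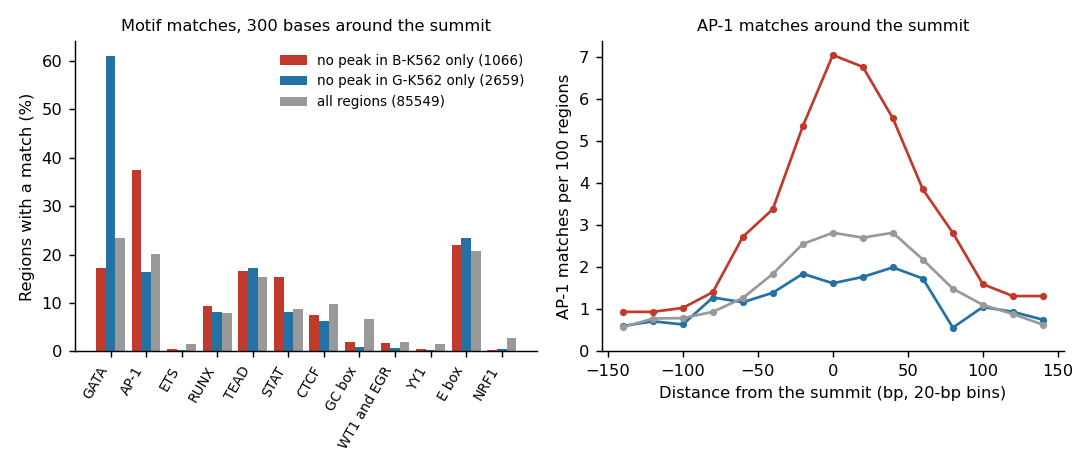
Left, the share of regions (%) with at least 1 match in the 300 bases around the summit, by motif, for the 1066 regions, the 2659 regions with no peak in G-K562 only, and all 85549 regions. Right, AP-1 matches per 100 regions in 20-bp bins by distance from the summit in bp, in the same colours; the 1066 regions reach 7.036 at the summit and all regions 2.816.

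The genes of factors known to bind these letters were measured as RNA, and a gene is said to fall or rise where its adjusted p was at most 0.05 and its change at least 2-fold. Of 17 AP-1 and MARE-binding factor genes tested, 3 fell in B-K562 against V-K562 and none rose, against 14.1% and 6.46% of all genes tested, with a median log2 difference of -0.03. ATF3, a stress-induced partner, averaged 3554 normalised counts in V-K562, 1223 in B-K562 and 2913 in G-K562. BATF fell from a mean of 34.33 to 16.0 and BATF3 from 111.7 to 47.67. JUN, JUNB and JUND, the common subunits, were under 2-fold, with log2 differences of -0.19, -0.17 and -0.03. FOS, FOSB and FOSL1 were higher in B-K562 than in V-K562, also under 2-fold, with log2 differences of 0.93, 0.88 and 0.63. In G-K562 against V-K562, 5 of the 17 rose and none fell, against 8.81% and 10.3% of all genes tested. FOS had 641, 564 and 535 counts in V-K562 and 1557, 3993 and 959 in G-K562 in the table of those lines. FOSB had 275, 278 and 298 in V-K562 and 1340, 2995 and 831 in G-K562. In both genes every G-K562 value was above every V-K562 value and replicate 2 stood high. Without that library, an alternative chosen after seeing the data, the G-K562 mean of FOS went from 2170 to 1258 and that of FOSB from 1722 to 1086, and both still passed the test (limma adjusted p = 3.9e-05 and 1.9e-07). Of 11 TEAD, STAT and SOX genes tested in B-K562, 1 fell and 1 rose, and each of the 4 STAT genes in the list changed by less than 2-fold.

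Between the lines that kept the peaks, the members were tested for a difference in pileup, which the rule did not use. Of the 1066, 16 (1.5%) had a higher and 55 (5.16%) a lower pileup in G-K562 against V-K562, against 1.57% and 7.53% of the 30775 regions tested (limma on log2 of pileup + 1, Benjamini-Hochberg adjusted p of at most 0.05 and at least 2-fold). The median log2 difference was -0.21, against 0.04 for all regions tested. That direction depends on the scaling between the lines: without it the members' median was 0.10 and that of all regions 0.36, and 59 members were higher and 15 lower. The largest rise was in MRPL23-AS1 on chr11:1988620-1989032, with 47, 36 and 37 tags in V-K562 and 199, 175 and 178 in G-K562. Its log2 difference was 1.86 (SE 0.17, limma adjusted p = 6.8e-14). MRPL23-AS1, a long non-coding RNA antisense to a mitochondrial ribosomal protein gene, had 4, 4 and 4 normalised counts in V-K562, 1, 1 and 0 in B-K562, and 44, 40 and 52 in G-K562. Among the members lower in G-K562, the log2 difference was -1.92 in PVT1 (SE 0.24) and -1.9 at chr3:166223148-166223642 (SE 0.21). The regions in PLXNA4 and UNC5C, guidance genes listed below, were also lower in G-K562 but by less, with log2 differences of -1.23 and -1.03 (SE 0.25 and 0.24).

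A measured gene lay within 10 kb of 720 members, and 710 genes were the closest to at least 1, of which 601 were protein-coding; 554 members lay inside the span of their gene. In B-K562 against V-K562, 532 of the 710 had enough counts to be tested, and 146 of them fell (27.4%) while 17 rose (3.2%). Of all 14958 genes tested, 14.1% fell and 6.46% rose (limma-trend on log2 of value + 1, adjusted p of at most 0.05 and at least 2-fold). Genes close to 0 in B-K562 can have enough counts through V-K562 alone. With at least 10 required in every library, 101 of 472 nearby genes fell (21.4%) and 14 rose (2.97%). Of all genes tested that way, 10.1% fell and 5.86% rose. The median log2 difference of the 532 was -0.27, against 0.01 for all genes tested. Every B-K562 value lay below every V-K562 value for 280 of the 532 (52.63%), against 38.13% of all genes tested. Of the genes closest to any region 13.9% fell and 6.16% rose. The share that fell was 25.3% for the genes close to the regions with a peak in 1 B-K562 library, 24.6% close to peaks seen in V-K562 alone, 13.8% close to peaks absent from G-K562 only, and 11.6% close to peaks in all 9 libraries.

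The share that fell was above that of all genes in each band of level and length examined. Among genes with a mean below 100, 84 of 150 nearby genes fell (56.0%), against 34.4% of all such genes. Between 100 and 1000 the shares were 30.4% and 12%, and above 1000 they were 5.88% and 3.31%. In genes spanning less than 20 kb the shares were 33.7% and 13.9%, and in those above 100 kb 26.0% and 16.0%.

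In G-K562 against V-K562 the nearby genes leaned the other way. Of 553 tested, 52 fell (9.4%) and 94 rose (17%), against 10.3% and 8.81% of the 15271 genes tested and 9.71% and 8.54% of those closest to any region, with a median log2 difference of 0.16. This comparison uses the same V-K562 libraries as the one above. With at least 10 required in every library, 36 of 501 fell (7.19%) and 67 rose (13.4%), against 7.35% and 6.73% of all genes tested. In B-K562 against G-K562, fitted over all 9 libraries with B-K562 put on the scale of the other table, 191 of 556 were lower in B-K562 (34.4%) and 37 higher (6.65%), against 17.4% and 12.5% of 15521 genes tested and 17.1% and 11.7% of those closest to any region, with a median of -0.41.

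Of the 3 positions compared, the share that fell was highest where the summit stood near the start of the gene. For 61 genes the start lay within 1 kb of a member's summit. Of the 41 tested in B-K562 against V-K562, 23 fell (56.1%) and 2 rose (4.88%), with a median log2 difference of -1.16. Where at least 10 was required in every library, a filter that drops genes close to 0 in B-K562, 15 of 31 fell (48.4%), against 10.1% of all genes tested. In G-K562 against V-K562, 7 of 45 fell (15.6%) and 16 rose (35.6%), and 10 of 38 rose under the same stricter filter (26.3%), against 6.73% of all genes tested. For members inside a gene but farther from its start, 109 of 391 genes fell in B-K562 (27.9%), and for members outside the gene within 10 kb, 22 of 115 (19.1%). At starts near peaks present in all 9 libraries, 7.97% of 10174 genes fell in B-K562, at those near peaks with 1 B-K562 library 18 of 41 (43.9%), and at those near peaks of V-K562 alone 20 of 32 (62.5%). At starts near peaks absent from G-K562 only, 13 of 84 genes fell in B-K562 (15.5%), and 54 of 82 fell in G-K562 (65.9%).

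**Figure D3:**
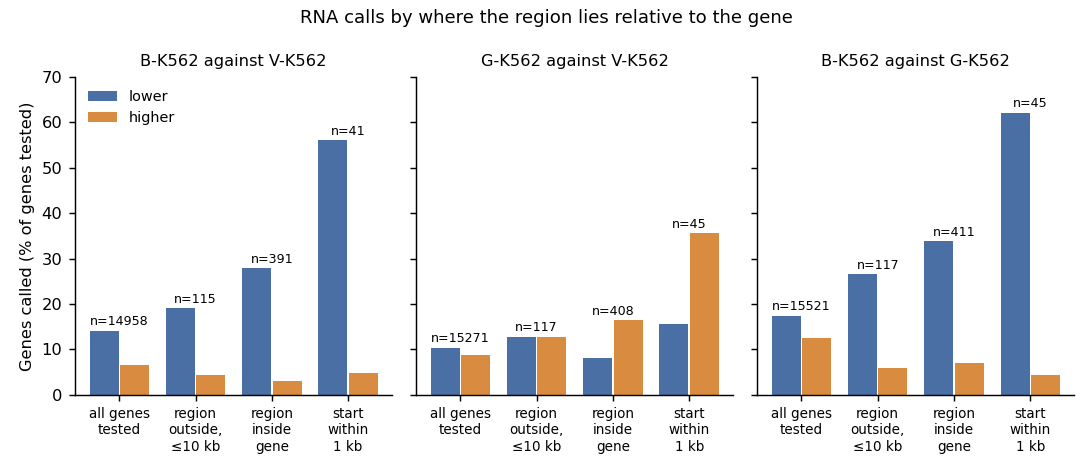
Genes called lower or higher, as a percentage of genes tested, for all genes, for genes with a member outside their span within 10 kb, inside it, or within 1 kb of the start, in each comparison of lines (n above the bars). In B-K562 against V-K562 the share called lower goes from 14.1% over all genes to 56.1% where the start is within 1 kb of a summit.

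At these starts, THRB, the thyroid hormone receptor beta, had 272, 269 and 249 normalised counts in V-K562, 12, 16 and 12 in B-K562 and 986, 876 and 970 in G-K562. Its log2 difference was -4.22 in B-K562 (SE 0.16, limma adjusted p = 8.5e-11) and 1.81 in G-K562 (SE 0.082, limma adjusted p = 8e-09). The region, chr3:24494212-24495953, covers the start, with 37, 39 and 47 tags in V-K562 and 104, 70 and 89 in G-K562, and no B-K562 peak lay within 142047 bp. The antisense gene THRB-AS1 also overlaps this region. No RNA values overlapped between the 3 lines, and neither did the unscaled pileups of V-K562 and G-K562. With the scaling used in the test of pileup, the log2 difference of the region in G-K562 against V-K562 was 0.75 (SE 0.2), under 2-fold.

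IL20RB, a receptor subunit for cytokines of the interleukin-20 group, had 1582, 1462 and 1743 counts in V-K562, 119, 102 and 117 in B-K562, and 2257, 2470 and 2653 in G-K562, a log2 difference of -3.81 in B-K562 (SE 0.088, limma adjusted p = 1e-12). Its region at chr3:136957675-136958087 had 45, 37 and 52 tags in V-K562 and 50, 52 and 49 in G-K562, which overlapped. SYTL1, a RAB27 effector in vesicle release whose start holds the AP-1 match shown above, had 703, 631 and 640 counts in V-K562, 45, 60 and 64 in B-K562, and 1209, 937 and 1300 in G-K562. ZNF597, a zinc finger gene, had 109, 115 and 107 counts in V-K562, 2, 2 and 1 in B-K562, and 142, 152 and 162 in G-K562; the ratio of the V-K562 to the B-K562 sum was 66.2 (exact 95% interval 28.1 to 205, counting error only). NAA60, an acetyltransferase gene with a start at the same member, had 1494, 1580 and 1578 counts in V-K562 and 1951, 1983 and 2040 in B-K562, a log2 difference of 0.36 that was under 2-fold.

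VLDLR, a lipoprotein receptor, had 95, 105 and 98 counts in V-K562, 7, 10 and 16 in B-K562 and 323, 277 and 353 in G-K562. TUBA3C, an alpha tubulin, had 1816, 1670 and 1638 counts in V-K562 and 143, 131 and 130 in B-K562, and in G-K562 635, 583 and 566; it has near-identical paralogs and shares its start with LOC101928697 on the other strand, so the split of reads between them is uncertain. IFI27, an interferon-induced gene, had 243, 98 and 94 in V-K562, 14, 12 and 13 in B-K562 and 106, 134 and 139 in G-K562, with V-K562 replicate 1 standing high. KRT12, a keratin, had 237, 190 and 205 counts in V-K562 and 38, 40 and 27 in B-K562. GRIN3B, a glutamate receptor subunit whose upstream AP-1 match is shown above, had 47, 48 and 75 in V-K562, 10, 11 and 6 in B-K562 and 54, 39 and 48 in G-K562. In these genes the B-K562 libraries lay below all others.

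The musculin locus on chromosome 8 held a member between the starts of MSC, a basic helix-loop-helix repressor, and its antisense RNA MSC-AS1. It covered neither start. MSC had 34, 28 and 28 counts in V-K562, 20, 1 and 3 in B-K562 and 328, 315 and 317 in G-K562, with B-K562 replicate 1 standing high. MSC-AS1 had 63, 64 and 89 counts in V-K562, 2, 4 and 3 in B-K562 and 266, 248 and 281 in G-K562. Whether reads were counted by strand is not given in the sources used here, so the 2 genes cannot be told apart where they overlap.

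KCNT2, a sodium-activated potassium channel gene with an intronic member, had 49, 49 and 30 counts in V-K562, 0, 0 and 0 in B-K562 and 84, 87 and 87 in G-K562, so it was at least 14.2-fold lower in B-K562 at a floor of 3 normalised counts per library. The closest B-K562 peak was 438798 bp from that member, and DNA copy number was not analysed here. CAPN5, a calcium-dependent protease with the intronic AP-1 match shown above, had 806, 942 and 851 counts in V-K562, 38, 35 and 38 in B-K562 and 64, 114 and 84 in G-K562, so that it fell in both lines. ROBO2, a receptor for the SLIT guidance cues, had 218, 229 and 249 in V-K562, 9, 10 and 11 in B-K562 and 301, 272 and 329 in G-K562; its intronic member at chr3:77179744-77180198 was 1393846 bp from the closest B-K562 peak. PROX1, a homeobox factor of lymphatic endothelium and liver, had 113, 124 and 130 in V-K562, 3, 6 and 9 in B-K562 and 170, 173 and 177 in G-K562. SMPDL3A, a phosphodiesterase related to acid sphingomyelinase, had 71, 63 and 69 in V-K562, 3, 1 and 1 in B-K562 and 128, 157 and 172 in G-K562, a ratio of V-K562 to B-K562 sums of 40.6 (exact 95% interval 17.1 to 126, counting error only). The B-K562 values lay below all others in ROBO2, PROX1 and SMPDL3A.

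RUNX3, a runt-domain factor of blood cells, had 65, 48 and 48 counts in V-K562, 4, 0 and 2 in B-K562 and 7, 7 and 9 in G-K562. SOX6, a SOX factor that represses embryonic and fetal globin genes, had 2 intronic members and had 224, 239 and 247 counts in V-K562, 50, 38 and 36 in B-K562, and 341, 375 and 407 in G-K562. Its log2 difference in B-K562 was -2.50 (SE 0.14, limma adjusted p = 2.8e-09). VDR, the vitamin D receptor and a known WT1 target, held an intronic member with an AP-1 match at chr12:47867648-47867975, with 39, 39 and 30 tags in V-K562 and 29, 49 and 31 in G-K562. It had 363, 366 and 414 counts in V-K562, 175, 201 and 170 in B-K562 and 257, 255 and 281 in G-K562, and its log2 difference of -1.06 in B-K562 (SE 0.096, limma adjusted p = 2.5e-07) was just past the 2-fold criterion. No member had BASP1 itself, WT1, AREG, EREG, VEGFA, MYC or HDAC1, which the study also discusses, as its closest gene within 10 kb.

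**Figure D4:**
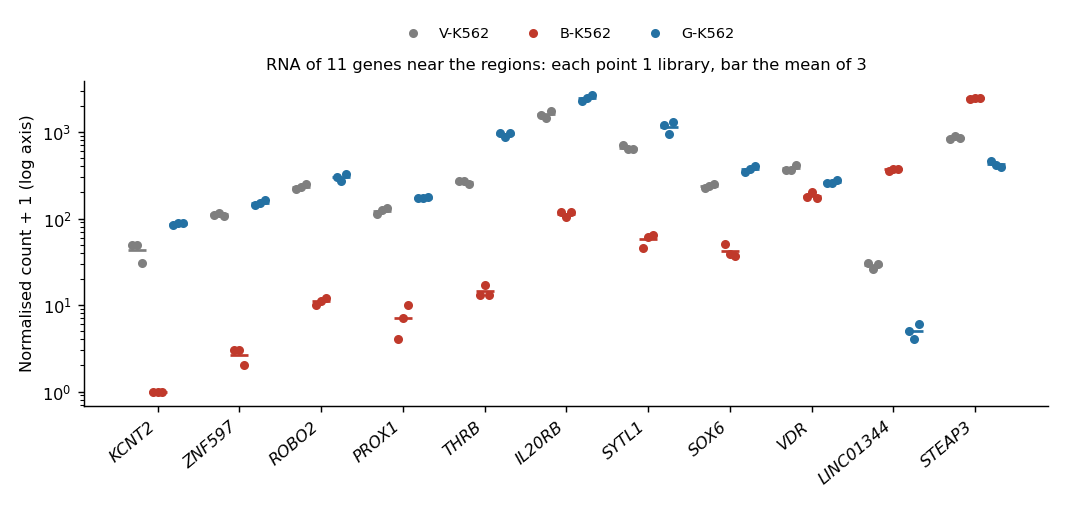
RNA of 11 genes near the regions as normalised count + 1 (log axis), each point 1 library and each bar the mean of 3, by line. From KCNT2 to VDR the B-K562 points lie below those of both other lines, and for LINC01344 and STEAP3 they lie above.

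Only 17 nearby genes rose in B-K562. LINC01344, a long non-coding RNA with 2 members, had 30, 25 and 29 counts in V-K562, 357, 371 and 376 in B-K562 and 4, 3 and 5 in G-K562, a log2 difference of 3.67 in B-K562 (SE 0.12, limma adjusted p = 2.8e-11). STEAP3, the ferrireductase that lets erythroid cells take iron from transferrin, had 820, 902 and 848 in V-K562, 2418, 2464 and 2472 in B-K562 and 457, 415 and 389 in G-K562. PDE11A, a cyclic nucleotide phosphodiesterase with 2 members, had 406, 472 and 421 in V-K562, 1313, 1215 and 1370 in B-K562 and 2027, 1935 and 1975 in G-K562, so that it was higher in both lines. TRPM6, a magnesium channel with a member near its start, had 47, 64 and 45 in V-K562, 148, 136 and 130 in B-K562 and 21, 12 and 25 in G-K562. NAT8L, the N-acetylaspartate synthase, METTL13, a methyltransferase, VAC14, a scaffold for a phosphoinositide kinase, and PRKCH, a protein kinase C, rose by log2 differences of 1.18 to 1.40 (SE 0.048 to 0.12). FAM230I and LOC100129503 completed the 10 largest rises, at 1.36 and 1.32. FAM230I belongs to a family of near-identical copies and its reads are uncertain.

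Of the 16 erythroid genes listed only HBE1, the embryonic beta-type globin, had a member within 10 kb, 9336 bp from the gene at chr11:5291281-5291599 with 49, 49 and 40 tags in V-K562 and 40, 53 and 59 in G-K562. HBE1 had 48550, 46053 and 40294 counts in V-K562, 66612, 64551 and 65851 in B-K562 and 20900, 26464 and 20187 in G-K562, a log2 difference of 0.55 in B-K562 that did not reach 2-fold. Over the erythroid list 7 of 16 rose and none fell in B-K562 (median 0.93), against 6.46% and 14.1% of all genes tested, and 11 of 16 fell in G-K562, against 10.3%. None of the GATA and erythroid factors, the CTCF and cohesin genes, the zinc finger factors of GC-rich sites or the megakaryocyte genes had a member nearby. In B-K562 against V-K562, 1 of 11 GATA and erythroid factors tested rose, none of 6 CTCF and cohesin genes reached an adjusted p of at most 0.05 with at least 2-fold, 1 of 10 of the zinc finger factors fell, and of 5 megakaryocyte genes tested 1 fell and 1 rose. CTCF and STAG1 were higher in B-K562 and only just short of 2-fold, with log2 differences of 1.0 after rounding and 0.97. SMC1A stood at 0.33, SMC3 at -0.06, STAG2 at -0.08 and RAD21 at -0.44. Of 14 ETS and RUNX factors tested 3 fell, RUNX3 being the one with a member nearby. These counts stand beside the same 14.1% lower and 6.46% higher over all genes tested.

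In the adhesion and guidance list, 4 of 11 genes tested fell and 2 rose in B-K562, against 14.1% and 6.46% of all genes tested, and ROBO2, UNC5C and PLXNA4 had members. UNC5C, a netrin receptor, had 34, 40 and 31 counts in V-K562, 3, 12 and 9 in B-K562 and 3, 2 and 0 in G-K562; a B-K562 peak lay 148 bp from its member. PLXNA4, a semaphorin coreceptor, had 5, 6 and 2 in V-K562, 15, 15 and 10 in B-K562 and 2, 1 and 2 in G-K562. Among the AP-1 and MARE-binding factors, BACH2 and NFE2L1 had members. BACH2, a repressor at MARE sites, had log2 differences of 0.15 in B-K562 and 0.36 in G-K562, neither past the 2-fold criterion. NFE2L1, a stress-response factor, had 8002, 7849 and 8068 counts in V-K562, 5784, 5900 and 5995 in B-K562 and 17204, 16057 and 17597 in G-K562. Its log2 difference of -0.44 in B-K562 was under 2-fold, and in G-K562 it rose by 1.06. WWTR1, a TEAD coactivator, had 38, 14 and 11 counts in V-K562 and 22, 3 and 7 in B-K562, which overlapped.

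KCNQ1, a potassium channel gene, held the most members, 3, all in introns. Its RNA was below the filter, with 3, 2 and 2 counts in V-K562, 0, 1 and 2 in B-K562 and 1, 0 and 2 in G-K562, so no difference was detectable at this depth. Of 28 genes with 2 or more members tested in B-K562 against V-K562, 9 fell (32.1%) and 2 rose (7.14%), against 14.1% and 6.46% of all genes tested. Beside the same 14.1%, splitting members by height gave 29.9% of nearby genes lower where all 6 libraries reached 25 tags and 25.3% where a library was below. Splitting by the AP-1 match gave 25.7% lower with it and 28.3% without it.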

How the data were processed

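RNA-seq and ATAC-seq of 3 culture replicates per line were used. Per the labels and the study's methods, the authors aligned reads to GRCh38, removed duplicates, counted RefSeq genes with Subread, and deposited whole-number counts that had been scaled by the DESeq2 size factor of each library, with a table for each BASP1 line and V-K562, so these values are a normalised signal and not raw counts. ATAC-seq peaks were called by the authors with MACS2 in each library after drawing all to the same number of tags; the deposited signal is the pileup at the summit and its mean over the interval. How reads were counted by strand is not given in the sources used here.

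Overlapping intervals were merged, and each region was assigned the closest gene of the RNA tables within 10 kb (28395 genes; 7 identifiers without a single span were dropped). Positions and transcript types came from GENCODE, bases from GRCh38. RNA values were tested as log2(value + 1) with limma-trend (limma 3.58.1, R 4.3.3) for genes with at least 10 in at least 3 libraries, with Benjamini-Hochberg adjustment, calling adjusted p of at most 0.05 and at least 2-fold. For B-K562 against G-K562, the scale of the tables was matched with a factor of 1.017 on B-K562, taken from the V-K562 columns that both hold. Pileup in V-K562 and G-K562 was scaled by a trimmed mean (factors 0.878 to 0.907 and 1.08 to 1.14). Fold changes on the log2(value + 1) scale understate those of low genes. The fits were tested on simulated data in which every gene, and every region, had the same dispersion. That does not show how they handle genes that vary more between replicates. Intervals cover counting error only; p-values measure the spread between cultures of 1 line. Whether same-numbered replicates pair was checked by the correlation of their deviations, and they did not.

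The members, gene lists and tests were chosen with earlier results of these data known. Named were the 12 tallest members, members within 1 kb of the start of genes called in B-K562 (up to 12), the 10 largest falls and 10 largest rises among nearby genes with a mean of at least 50 in 1 line, genes with 3 or more members, listed genes with a member within 10 kb, some genes the study discusses, and genes called in opposite directions. The authors' own fold changes and p-values in the tables were not used. Alternatives are given at the end.

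A few items that the naming rule selects are not reported here.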

Additional observations from a re-analysis of the deposited data

Results flagged for a closer look

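Among the genes near members, those below were called in opposite directions in B-K562 and in G-K562 against V-K562 and are given because of that choice. The choice fixes the direction of the difference between B-K562 and G-K562, which is therefore a description. The 5 below are among those with the largest differences. In B-K562 against G-K562 the log2 difference was -6.15 for COL15A1, -6.07 for MSC-AS1, -6.03 for THRB, -5.9 for SMPDL3A and 6.25 for LINC01344. COL15A1, a basement membrane collagen not described above, had 706, 834 and 1077 counts in V-K562, 249, 256 and 291 in B-K562 and 19368, 16913 and 21372 in G-K562. Its intronic member at chr9:99012951-99013327 had 37, 27 and 43 tags in V-K562 and 42, 46 and 57 in G-K562.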

How the results depend on the processing

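Without the fold criterion, nearby genes lower and higher numbered 283 and 138 in B-K562 against V-K562, 147 and 257 in G-K562 against V-K562, and 309 and 154 in B-K562 against G-K562, and 94 members had a higher and 242 a lower pileup in G-K562. The shares of all genes and of all regions that pass without the fold criterion are not given. These counts therefore show how the calls depend on the criterion and are not a result about the members. Requiring at least 10 in every library left 125 lower and 24 higher in B-K562 against G-K562, and for genes with a start within 1 kb of a member it left 15 lower in B-K562 against V-K562, 10 higher in G-K562 against V-K562 and 15 lower in B-K562 against G-K562, in place of 23, 16 and 28. Among the latter genes, quantile normalization gave 4 higher in B-K562 against V-K562 in place of 2, and leaving out G-K562 replicate 1 or 3 gave 1 higher in B-K562 against G-K562 in place of 2. Elsewhere, assigning genes by closest start within 50 kb left 19 higher there. For pileup in G-K562 against V-K562, the mean over the interval gave 8 higher and 26 lower, a pseudocount of 5 gave 33 lower, and no scaling gave 59 higher and 15 lower with the members' median reversed to 0.09865. A pileup of at least 25 in V-K562 and G-K562 kept 450 members.

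Leaving out 1 library in turn gave 115 to 146 lower and 14 to 18 higher in B-K562 against V-K562, 35 to 53 and 78 to 97 in G-K562 against V-K562, and 178 to 192 and 33 to 38 in B-K562 against G-K562. For pileup it gave 13 to 28 higher and 51 to 68 lower, the 28 without G-K562 replicate 2, and 1166 to 1475 members. With the replicate number as a block the counts were 147 and 17, 52 and 94, and 191 and 37, and 16 and 55 for pileup; deviations of same-numbered libraries had correlations of 0.0703, 0.0411 and 0.00108 in B-K562 with V-K562 and of -0.0966, -0.0586 and 0.145 in G-K562 with V-K562, so the numbers were not taken to pair the samples. Over 56 gene results, 576 alternative values kept their direction, and 7 no longer passed the threshold, for FAM230I, PLXNA4, VDR, STEAP3 and HBE1. The cause of these shifts was not tested. The deposited values are scaled and not raw counts, and differences in genes near the filter of 10 are the least certain.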
